A study of Mus musculus with 9 samples.

Results

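The 10 genes described here encode the machinery that displays peptides from inside the cell on MHC class I molecules. They were chosen by name, and each matched 1 row of the 43346 genes in the table: H2-K1, H2-D1, B2m, Tap1, Tap2, Tapbp, Psmb8, Psmb9, Psmb10 and Nlrc5. All 10 passed the filter on low counts (an average of at least 25 counts over the libraries), as did 16877 genes in all. Between sham and bleomycin-injured aged lungs, none of the 10 passed the test for differential expression, while 23.8% of all tested genes did (4022 of 16877). The heavy chain, light chain, transporter and immunoproteasome genes varied between libraries within each group, and mostly together. For Tapbp, Psmb10 and B2m this spread was below the median spread of all tested genes.

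MHC class I molecules are made of a heavy chain, such as H2-K or H2-D in the mouse, and the light chain beta-2 microglobulin. The proteasome cuts cytosolic proteins into peptides, the TAP transporter carries them into the endoplasmic reticulum, and tapasin holds empty class I molecules at the transporter until a peptide is bound. Cytotoxic T cells read the displayed peptides. Interferon gamma raises the whole set of genes through IRF1 and the class I transactivator NLRC5, and replaces the constitutive catalytic subunits of the proteasome with the inducible ones of the immunoproteasome. Fibroblasts, like most nucleated cells, carry class I molecules at their surface.

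The libraries came from Col1a1-GFP transgenic mice, in which a collagen I promoter drives green fluorescent protein. The mice were aged (72 weeks, also given as 18 months), and both groups carried the transgene. The study describes them as males of the FVB background. The aged sham group (n = 4 libraries) had received saline into the trachea and the aged bleo group (n = 5 libraries) bleomycin, a drug that injures the lung and causes fibrosis. Lungs were taken on day 30, and GFP+ cells without CD45, CD31 and EpCAM, the surface markers of leukocytes, endothelium and epithelium, were sorted by flow cytometry for RNA-seq. The reporter limits the sample to cells in which the collagen I promoter was active, and Col1a1 itself was higher in the aged bleo group. The study describes its data points as separate animals, so each library was counted as 1 replicate, and the labels do not number the mice.

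Each library held 49921946 to 68260600 counts in genes, with medians of 54988154 in the aged sham group and 55598628 in the aged bleo group. Col1a1, the collagen I chain whose promoter drives the reporter, stood at 3649 to 4559 CPM (a gene's counts relative to the library total, the usual CPM unit, scaled between libraries by TMM) in the aged sham group and 13560 to 25954 in the aged bleo group. Of 7 fibroblast markers 3 rose (Col1a1, Col1a2 and Pdgfrb) and 2 fell, Dcn from a mean of 8122 to 2795 CPM and Tcf21 from 106 to 49.6, while Pdgfra ranged from 440.2 to 986 CPM. Epcam and Pecam1, the genes of the epithelial and endothelial sort markers, reached at most 1.20 and 6.70 CPM, but the sum of 6 epithelial genes, among them the surfactant gene Sftpc (up to 57.9 CPM), was 8.19 to 80.1 CPM in the aged sham group and 14.8 to 51.2 in the aged bleo group. Ptprc, the gene of the leukocyte marker CD45 that the sort selected against, was present at 30.6 to 183 CPM. Summed over 8 pan-leukocyte genes, none of them at 0, the level was 115.6 to 438 CPM in the aged sham group and 121 to 671 in the aged bleo group, highest in aged sham 4 and aged bleo 4. Summed over 11 macrophage genes it was 164 to 289 CPM against 472 to 1575. The gap between these sums rested largely on 1 gene, Lyz2, with a mean of 117.4 CPM in the aged sham group and 627.7 in the aged bleo group. All 11 macrophage genes had positive log2 fold changes and 4 rose, but the groups were apart only for Lyz2 and Cd68.

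The region just upstream of a class I gene holds the elements through which it is switched on. These regions are shown for H2-K1, H2-D1, B2m, H2-Q4, H2-M3 and Psmb8, all of which held a match to the motifs below. They are 200 bases before the RefSeq start site (GRCm38.p6), which was listed for 8 of the 10 members. Tap2 and Nlrc5 had none. The letters are those of the reference genome and were not read from these FVB mice. Capitals mark letters that match the core of an interferon-stimulated response element (GAANNGAAA), an NF-kappaB site (GGGANNNNCC), a gamma-activated site (TTCNNNGAA), or the X2 and Y boxes of the class I enhanceosome (TGACG followed on the same strand by ATTGG with 15 to 25 bases between), searched on both strands. NLRC5 acts through the factors on the X and Y boxes. The windows lie at chr17:34000334-34000533 on the minus strand for H2-K1 and, on the plus strand, at chr17:35262894-35263093 for H2-D1, chr2:122147487-122147686 for B2m, chr17:35379417-35379616 for H2-Q4, chr17:37270034-37270233 for H2-M3 and chr17:34197995-34198194 for Psmb8.
H2-K1: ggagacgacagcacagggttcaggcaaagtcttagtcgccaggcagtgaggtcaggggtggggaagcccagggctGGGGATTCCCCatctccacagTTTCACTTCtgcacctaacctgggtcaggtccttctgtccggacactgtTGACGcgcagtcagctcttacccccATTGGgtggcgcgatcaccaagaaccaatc
H2-D1: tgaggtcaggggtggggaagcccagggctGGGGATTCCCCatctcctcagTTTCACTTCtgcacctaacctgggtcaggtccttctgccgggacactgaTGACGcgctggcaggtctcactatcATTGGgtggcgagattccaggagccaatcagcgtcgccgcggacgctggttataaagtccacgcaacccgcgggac
B2m: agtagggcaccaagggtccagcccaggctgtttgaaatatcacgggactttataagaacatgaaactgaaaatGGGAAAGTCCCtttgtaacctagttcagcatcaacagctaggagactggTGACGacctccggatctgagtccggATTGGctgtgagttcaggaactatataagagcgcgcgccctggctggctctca
H2-Q4: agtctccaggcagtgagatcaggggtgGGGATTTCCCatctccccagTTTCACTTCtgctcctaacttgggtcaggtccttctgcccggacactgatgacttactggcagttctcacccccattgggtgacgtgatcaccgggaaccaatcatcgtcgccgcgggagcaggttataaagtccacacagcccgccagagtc
H2-M3: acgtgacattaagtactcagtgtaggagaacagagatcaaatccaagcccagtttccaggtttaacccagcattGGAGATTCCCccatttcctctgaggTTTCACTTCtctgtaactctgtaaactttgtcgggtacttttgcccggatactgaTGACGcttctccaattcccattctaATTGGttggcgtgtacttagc
Psmb8: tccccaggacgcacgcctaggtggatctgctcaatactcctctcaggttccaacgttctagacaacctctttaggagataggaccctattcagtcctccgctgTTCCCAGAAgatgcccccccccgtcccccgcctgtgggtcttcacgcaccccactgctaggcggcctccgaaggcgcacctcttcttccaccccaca

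H2-K1, H2-D1 and B2m each held an NF-kappaB core and an X2-Y pair in these windows, and the heavy chains also held the interferon response core, read on the minus strand as TTTCACTTC. Among all 27025 promoters, the interferon response core occurred in 5.01%, the NF-kappaB core in 14.8%, the gamma-activated core in 5.57% and the X2-Y pair in 0.374%. Of the 8 members with a window, 2 held the interferon response core, 3 the NF-kappaB core, 3 the X2-Y pair and 1, Psmb8, the gamma-activated core. The windows of Tap1, Tapbp, Psmb9 and Psmb10 held no match and are not shown. The same holds for the nonclassical gene Mr1 and the proteasome gene Psmb5. The nonclassical gene H2-Q4 held the interferon response and NF-kappaB cores without the exact letters of the X2-Y pair. H2-M3 held all the elements seen in H2-K1, as did H2-Q7, whose log2 fold change was 0.06. Of 11 nonclassical genes with a window, 6 held the interferon response core, 5 the NF-kappaB core and 2 the X2-Y pair. A link between these letters and the fold changes was not tested. The motifs were chosen with these sequences in view, and a match describes letters, not a bound site. Tap1 and Psmb9 start 226 bases apart on opposite strands and so share the sequence between them.

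The class I heavy chains H2-K1 (ENSMUSG00000061232, chr17:33996017-34000333) and H2-D1 (ENSMUSG00000073411, chr17:35262730-35267499) did not differ between the groups beyond the spread of the libraries. H2-K1 was at 480.5, 331, 294 and 313 CPM in aged sham 1 to 4 and at 334, 315, 621, 395 and 309 CPM in aged bleo 1 to 5. Aged sham 1 and aged bleo 3 stood above the rest, aged bleo 4 came next, and the other libraries of both groups fell between 294 and 334 CPM. The log2 fold change, bleo over sham, was 0.15 with a standard error (SE) of 0.24 (edgeR quasi-likelihood, FDR = 0.642), and without aged bleo 3 it was -0.067. H2-D1 was at 1269, 1163, 1077 and 1271 CPM in the aged sham group and at 998, 1031, 1596, 1147 and 796 CPM in the aged bleo group. The aged bleo libraries spanned the whole aged sham range, with aged bleo 3 above it and aged bleo 1, 2 and 5 below it (log2 fold change -0.10, SE 0.18, FDR = 0.699).

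B2m, which encodes the light chain shared by all classical and most nonclassical class I molecules (ENSMUSG00000060802, chr2:122147686-122153083), was at 811, 674, 641 and 733 CPM in the aged sham group and at 744, 705, 1078, 831 and 796 CPM in the aged bleo group. The groups overlapped, with aged bleo 3 again highest. The log2 fold change was 0.22 with an SE of 0.14 (FDR = 0.255), and its 95% interval reached from -0.098 to 0.53.

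**Figure D1:**
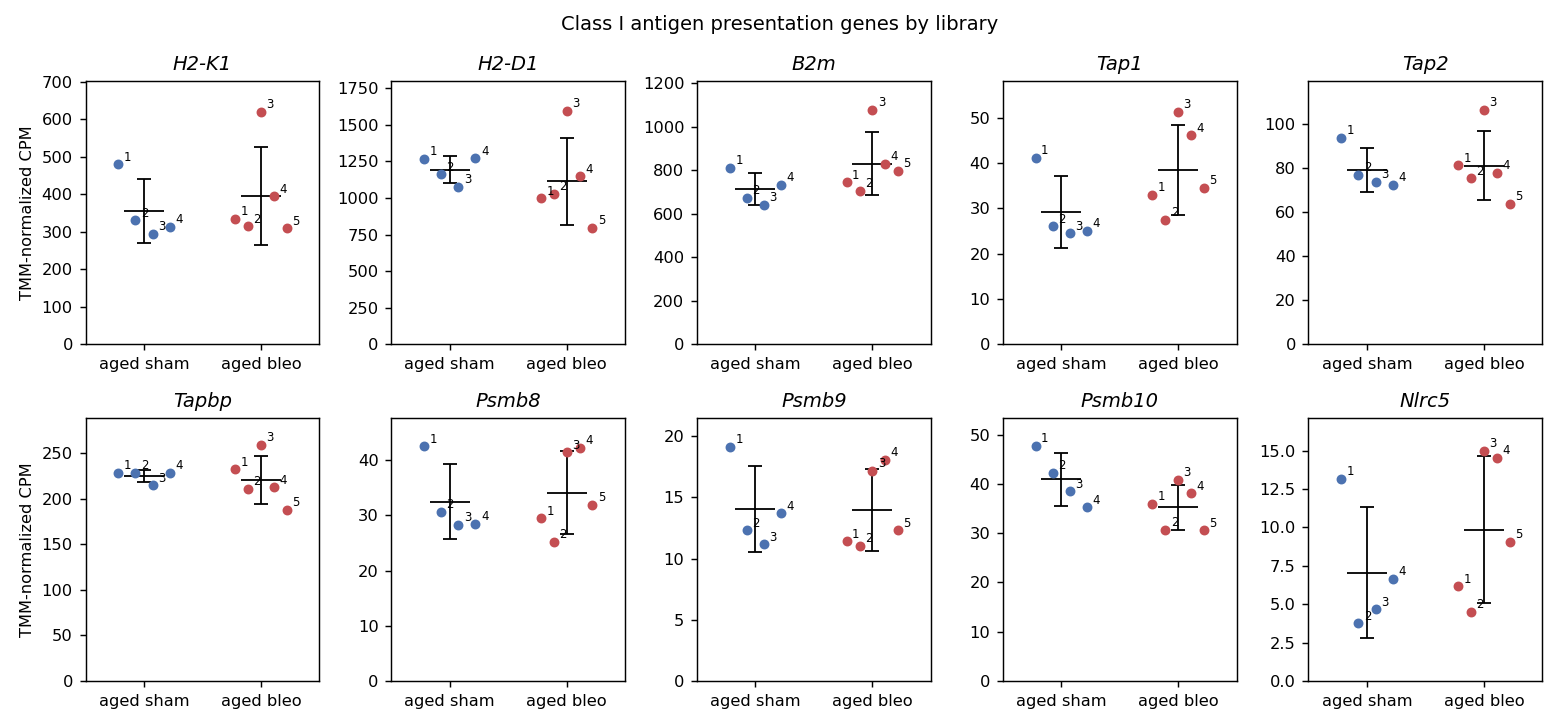
TMM-scaled CPM (vertical axis from 0) of the 10 class I antigen presentation genes in each aged sham (blue, n = 4) and aged bleo (red, n = 5) library. Small digits give the library number, bars the mean ± SD, and in all 10 panels the groups overlap, with aged sham 1 or aged bleo 3 near the top of most.

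Of the peptide loading genes, Tap1 had the largest difference and Tap2 and Tapbp were nearly level. Tap1 (ENSMUSG00000037321, chr17:34187553-34197225), a subunit of the peptide transporter, was at 41.2, 26.0, 24.5 and 25.1 CPM in the aged sham group and at 33.1, 27.5, 51.3, 46.2 and 34.6 CPM in the aged bleo group. All 5 aged bleo libraries were above aged sham 2, 3 and 4, and aged sham 1 was above 3 of them. The log2 fold change was 0.40 with an SE of 0.22 (edgeR FDR = 0.184). Without aged sham 1 it was 0.61 and passed both thresholds (FDR = 0.05), the only such change among the members under any alternative tried.

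Tap2 (ENSMUSG00000024339, chr17:34203527-34216321), the partner subunit of the transporter, was at 93.6, 76.8, 73.6 and 72.3 CPM against 81.1, 75.3, 106, 77.7 and 63.8 CPM. Its log2 fold change was 0.03 with an SE of 0.14. Tapbp (ENSMUSG00000024308, chr17:33915899-33929288), which encodes tapasin, varied least of the members. It was at 229, 228, 215 and 228 CPM in the aged sham group and at 232, 211, 259, 212 and 187 CPM in the aged bleo group, and its highest library was 1.38 times its lowest. The log2 fold change of Tapbp was -0.03 with an SE of 0.096, and its 95% interval, from -0.24 to 0.18, lay within a fold change of 1.5 in either direction.

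The 3 inducible catalytic subunits of the immunoproteasome overlapped between the groups. Psmb8 (ENSMUSG00000024338, chr17:34197721-34201454), the chymotrypsin-like subunit, was at 42.5, 30.7, 28.3 and 28.5 CPM in the aged sham group and at 29.5, 25.2, 41.4, 42.3 and 31.9 CPM in the aged bleo group (log2 fold change 0.07, SE 0.18). Psmb9 (ENSMUSG00000096727, chr17:34181988-34187764) was at 19.1, 12.3, 11.2 and 13.7 CPM against 11.4, 11.0, 17.2, 18.1 and 12.3 CPM, and the means of 14.1 and 14.0 CPM were nearly the same. For both genes aged sham 1, aged bleo 3 and aged bleo 4 were the high libraries. Psmb10 (ENSMUSG00000031897, chr8:105935728-105938392) was the member with the lowest fold change. It was at 47.7, 42.2, 38.5 and 35.2 CPM in the aged sham group and at 35.9, 30.7, 40.8, 38.1 and 30.6 CPM in the aged bleo group (log2 fold change -0.22, SE 0.12, FDR = 0.177).

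Nlrc5 (ENSMUSG00000074151, chr8:94472763-94527272), the transactivator of class I genes, was the lowest and most variable member. It was at 13.2, 3.75, 4.65 and 6.66 CPM in the aged sham group and at 6.16, 4.51, 14.98, 14.5 and 9.08 CPM in the aged bleo group. Aged sham 1, aged bleo 3 and aged bleo 4 stood at 13.2 to 14.98 CPM and the other 6 libraries at 3.75 to 9.08, and the highest was 4.0 times the lowest. The log2 fold change was 0.48 with an SE of 0.46 (FDR = 0.439), and its 95% interval, from -0.54 to 1.51, held 0 as well as rises of more than 1.5-fold. With 1 library left out at a time the log2 fold change ran from 0.27 to 0.97, the highest without aged sham 1, and did not pass. The within-group SD of its log2 CPM was 0.77, against a median of 0.22 over all tested genes. The next highest member was H2-K1 at 0.38, and B2m (0.20), Psmb10 (0.19) and Tapbp (0.13) were below that median.

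Across the 10 members, 0 passed the threshold (FDR under 0.10 and fold change over 1.5), where 12.3% of the tested genes passed higher (2082) and 11.5% lower (1940). No member had an unadjusted p under 0.05 in edgeR, DESeq2 or limma, a level that 46% of all tested genes reached in edgeR (7769). In these tools the count of members passing was also 0. The groups overlapped for every member, and the share of all tested genes whose groups overlapped is not given here. Of the members, 6 had a positive log2 fold change, and the median was 0.05 against 0.0064 over all tested genes. For 7 of the 10 the 95% interval of the log2 fold change lay inside ±0.585, the value of a 1.5-fold change, and the 3 others were H2-K1, Tap1 and Nlrc5. In these bulk samples a change in the share of a cell type and a change in RNA per cell cannot be told apart.

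The members moved together between libraries. Aged sham 1 was the highest of the aged sham group for 9 of 10 members, with H2-D1 the exception at 1269 CPM beside 1271 in aged sham 4. Aged bleo 3 was the highest of the aged bleo group for 8 of 10, and aged bleo 4 for Psmb8 and Psmb9. Summed over the 10 genes, the aged sham libraries held 2408 to 3046 CPM and the aged bleo libraries 2271 to 3826. After subtracting group means, Pearson's r of log2 CPM between members ranged from 0.27 to 0.98 with a median of 0.80 over the 45 pairs, and exceeded 0.5 in 41. These correlations describe 9 libraries that share their RNA and scaling, and no such values for pairs of other genes are given here.

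The leukocyte gene Ptprc shared the members' high libraries only in part. It was at 42.3, 44.7, 92.4 and 169 CPM in the aged sham group and at 30.6, 31.2, 43.6, 183 and 36.4 CPM in the aged bleo group. Aged sham 4 and aged bleo 4 stood out, while aged sham 1 and aged bleo 3, where most members were highest in their group, were at 42.3 and 43.6 CPM. Aged bleo 4 was also the highest aged bleo library for Psmb8 and Psmb9, and Nlrc5 was at 14.5 CPM there. By group, the macrophage (289 and 1575 CPM), neutrophil (1018 and 906 CPM) and T and NK cell sums (15.4 and 44.3 CPM) were also highest in aged sham 4 and aged bleo 4. Gzmb, of the T and NK cell list, was highest in aged bleo 3 (14.9 CPM). The B cell sum was 10.6 CPM in aged sham 1 and at most 4.68 in any other library. The dendritic cell sum was highest in aged sham 1 (28.4 CPM), where Zbtb46 alone held 25.8 CPM of it and Flt3 was at 0.21 CPM. Within the aged bleo group, the B cell and dendritic cell sums were highest in aged bleo 4. The part of these cells in the members' values was not tested. Within groups, r with Ptprc was 0.33 for Nlrc5, 0.321 for Psmb9, 0.213 for Psmb8, 0.193 for H2-D1, 0.13 for Tap1 and 0.092 for B2m. It was -0.059 for H2-K1, -0.084 for Tapbp, -0.087 for Psmb10 and -0.19 for Tap2. Without aged sham 4 and aged bleo 4, again 0 of 10 members passed. The log2 fold changes were then 0.08 for H2-K1, 0.21 for B2m, 0.24 for Tap1 and 0.25 for Nlrc5. Psmb10 had the lowest value, -0.33 (edgeR FDR = 0.0814), under the FDR limit but short of 1.5-fold.

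**Figure D2:**
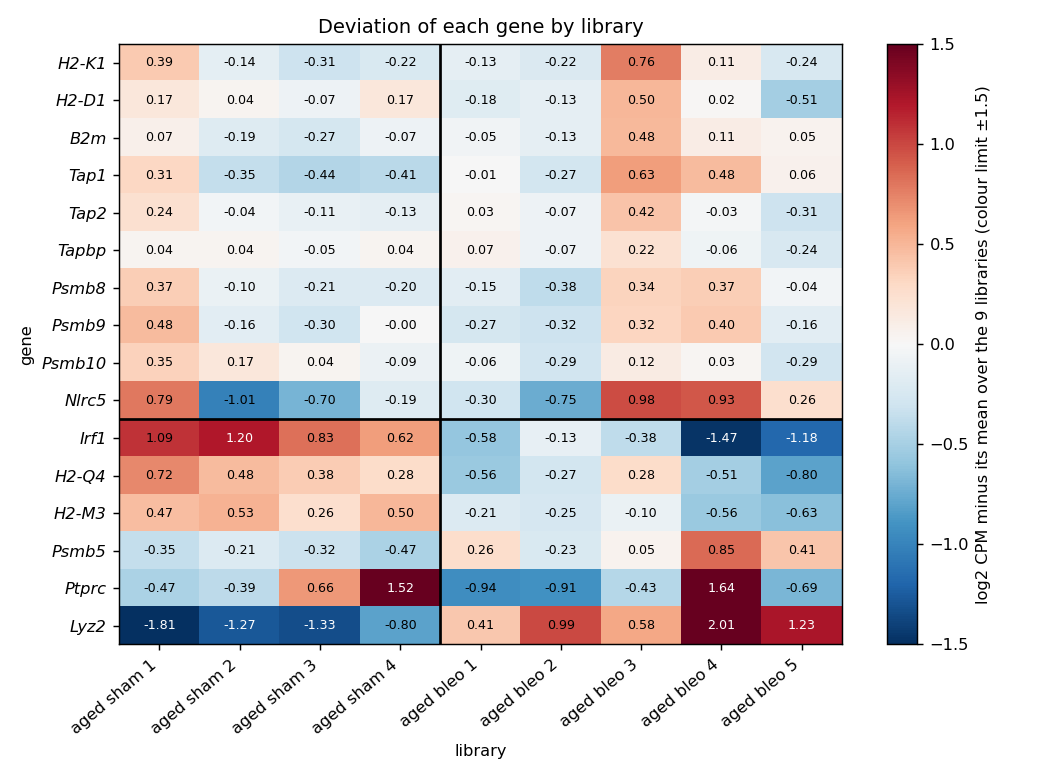
Log2 CPM of each gene minus its mean over the 9 libraries, with libraries in columns and genes in rows, and the 10 members above the horizontal line. Red is above the mean and blue below, and colours stop at ±1.5. The members are red in aged sham 1 and aged bleo 3, and Tap1, Psmb8, Psmb9 and Nlrc5 also in aged bleo 4. Ptprc is reddest in aged sham 4 and aged bleo 4, and Irf1 divides the groups.

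Per unit of gene length the members kept the same order in all 9 libraries. By median FPKM (fragments per kilobase of gene length, scaled by library size, as deposited) the order was B2m (374), H2-D1 (192), H2-K1 (54.0), Tapbp (28.9), Psmb10 (12.8), Tap2 (8.65), Psmb8 (4.77), Tap1 (2.61), Psmb9 (1.46) and Nlrc5 (0.357). Each gene's FPKM was above that of the next in 9 of 9 libraries, so no neighbours changed places. The light chain level was above the H2-D1 level, and the H2-D1 level above the H2-K1 level, in sham and injured lungs alike. Mice of the FVB background carry another H2 haplotype than the reference genome, so the levels of heavy chains depend on how well their reads matched it.

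The genes most like a member within groups, among 10005 tested genes with a mean of at least 10 CPM, were named by rank for 5 members. For H2-K1 they were H2-Q1 (r = 0.995 over 9 libraries), H2-Q6 (0.98) and H2-Q2 (0.946), nonclassical class I genes of similar sequence. Those for Nlrc5 included Igtp (0.949), an interferon-induced GTPase, and Oasl2 (0.947). Igtp also led for B2m (0.953) and Tap1 (0.957), and Bst2 (0.967), which encodes tetherin, led for Psmb8. The other genes named by this rule were Gm26809 (0.941) and Ptprj (0.94) for B2m, Tgif2 (0.95) and Ptprj (0.947) for Tap1, and Ets1 (0.947) and Ddx54 (0.946) for Psmb8.

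Ifng, the gene of interferon gamma, was at most 0.287 CPM and Ifnb1 at most 0.037 CPM, and both fell under the count filter.

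Irf1, by contrast, fell in the injured lungs. This interferon-induced transcription factor of class I genes was at 472, 510, 395 and 343 CPM in the aged sham group and at 149, 203, 171, 80.2 and 97.8 CPM in the aged bleo group. Every aged bleo library was below every aged sham library (log2 fold change -1.62, SE 0.27, edgeR FDR = 0.00243), and the value stayed between -1.79 and -1.48 under all alternatives. Within groups its r was 0.227 with H2-K1, 0.002 with B2m, -0.157 with Tap1 and -0.755 with Ptprc. The Irf1 window upstream of its start held 1 gamma-activated core and 1 NF-kappaB core.

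Of 20 regulators of class I genes, only Irf1 passed lower and only Ezh2 higher, where 11.5% and 12.3% of all tested genes did. Ezh2, a histone methyltransferase of the Polycomb complex, had a log2 fold change of 0.86 (SE 0.23, FDR = 0.0183). The median of the list was -0.071. Among those that missed the limit on fold change, Irf9 (-0.45, FDR = 0.00595), Stat2 (-0.45, FDR = 0.043), which act in type I interferon signalling, and the NF-kappaB subunit Rela (-0.47, FDR = 0.015) had negative values. The enhanceosome genes Rfx5, Rfxap, Rfxank, Creb1, Nfyb and Nfyc had log2 fold changes between -0.09 and 0.16, and the NF-Y subunit gene Nfya one of -0.31 (FDR = 0.059).

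Of 9 tested genes for interferon receptors and signalling, 2 fell and 1 rose, where 11.5% and 12.3% of all tested genes did. Socs3, a feedback inhibitor of cytokine receptors, was at 1149, 1132, 1124 and 881 CPM in the aged sham group and at 503, 696, 510.4, 249 and 320 CPM in the aged bleo group (log2 fold change -1.23, SE 0.27, FDR = 0.00859). The groups did not overlap. Socs1, which inhibits interferon gamma signalling, had a log2 fold change of -0.64 (FDR = 0.0376), and the receptor kinase Jak2 one of 0.64 (FDR = 0.0275). Both missed the limit on fold change when single libraries were left out, Socs1 without aged sham 2 (-0.57) or aged bleo 5 (-0.50) and Jak2 without aged sham 2 (0.54), aged sham 4 (0.58) or aged bleo 3 (0.58). The chains of the interferon gamma receptor differed in sign, with Ifngr1 at -0.42 and Ifngr2 at 0.38, and neither reached 1.5-fold.

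**Figure D3:**
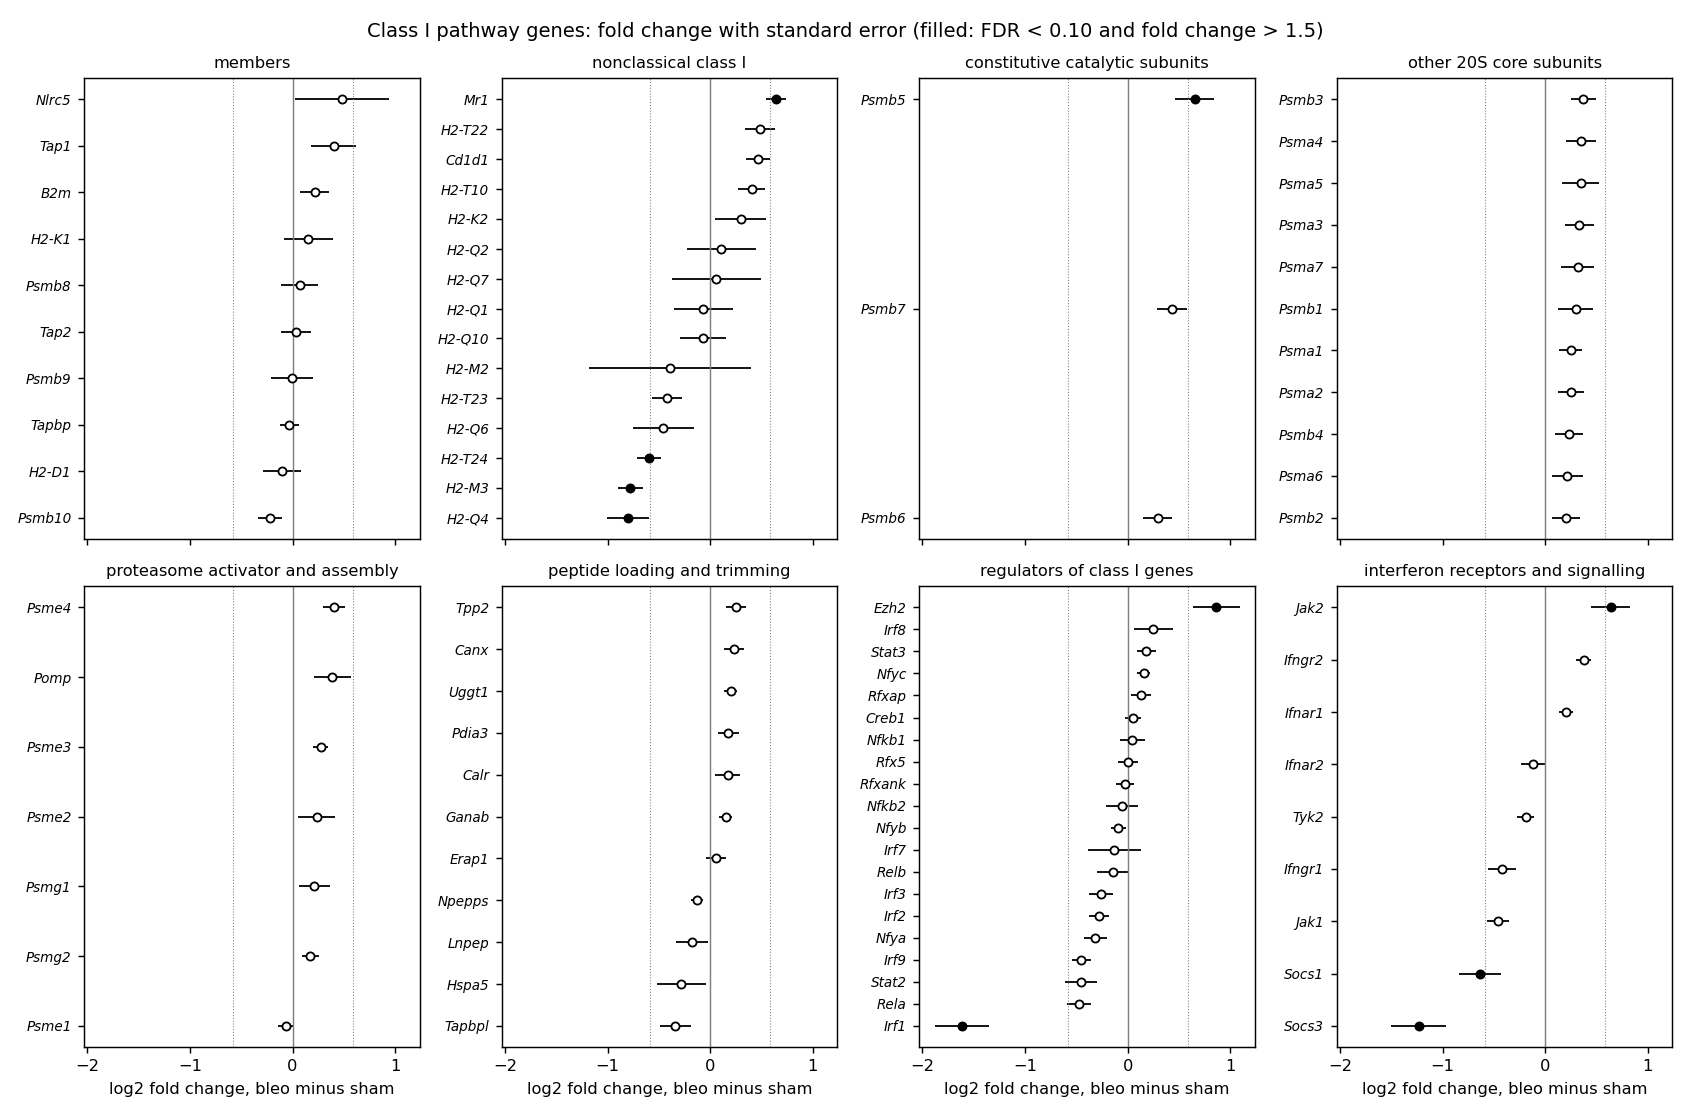
Log2 fold change (horizontal axis, bleo minus sham) with its standard error for the members and 7 other lists of class I pathway genes. Filled points passed FDR under 0.10 and a fold change over 1.5 (dotted lines), none among the members, and all 11 noncatalytic core subunits of the proteasome lie to the right of 0 without passing.

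Of the 15 tested nonclassical class I genes 4 passed, 3 lower and 1 higher, beside 23.8% of all tested genes. The list held 18 genes, of which H2-L and H2-T9 were not listed and H2-T3 fell under the filter, and its median log2 fold change was -0.065. H2-Q4 was at 325, 275, 257 and 239 CPM in the aged sham group and at 133, 163, 239, 138 and 113 CPM in the aged bleo group (log2 fold change -0.80, SE 0.21, FDR = 0.0163). Aged bleo 3 reached the level of aged sham 4, and the 4 others were below every aged sham library.

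H2-M3, which presents N-formylated peptides of bacteria and mitochondria, was at 20.9, 21.8, 18.1 and 21.4 CPM in the aged sham group and at 13.1, 12.7, 14.1, 10.2 and 9.78 CPM in the aged bleo group. The groups did not overlap (log2 fold change -0.78, SE 0.12, FDR = 0.00197). H2-T24 was at 7.02 to 9.19 CPM against 4.72 to 5.88 (log2 fold change -0.59, SE 0.12, FDR = 0.00586), close to the limit on fold change, and under several alternatives it missed that limit. Mr1, which presents vitamin B metabolites to mucosal-associated invariant T cells, rose, with 50.5 to 57.2 CPM in the aged sham libraries and 73.9 to 96.7 CPM in the aged bleo libraries (log2 fold change 0.65, SE 0.099, FDR = 0.00167). Without aged sham 4 and aged bleo 4 the values were -0.84 for H2-Q4, -0.73 for H2-M3, -0.70 for H2-T24 and 0.70 for Mr1, and all 4 passed.

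**Figure D4:**
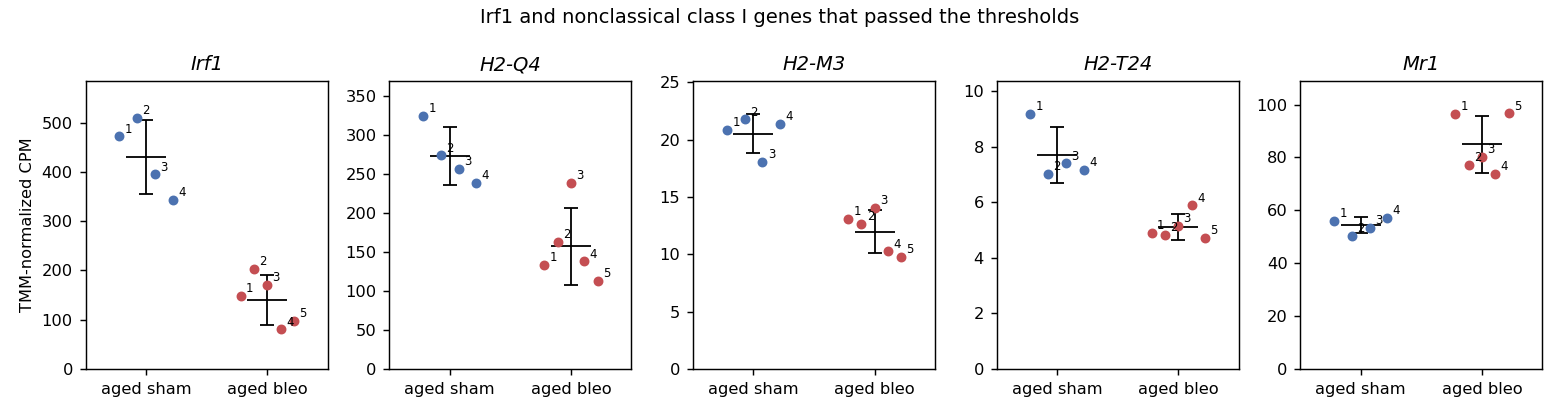
TMM-scaled CPM (vertical axis from 0) of Irf1 and of the 4 nonclassical class I genes that passed the thresholds, per aged sham (blue, n = 4) and aged bleo (red, n = 5) library with mean ± SD. The groups separate in every panel except that of H2-Q4, where aged bleo 3 at 239 CPM meets aged sham 4.

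The H2-Q genes did not all behave like H2-Q4. H2-Q6 had a log2 fold change of -0.45 (FDR = 0.255) and H2-Q7 of 0.06 (FDR = 0.926). H2-Q7 was at 39.9, 11.8, 11.6 and 14.6 CPM in the aged sham group and at 13.5, 14.1, 34.6, 24.4 and 15.1 CPM in the aged bleo group, with the same high libraries as the members. H2-T22 (0.48), Cd1d1 (0.47) and H2-T10 (0.41) had FDR values from 0.013 to 0.038 and missed the limit on fold change. H2-T23 also missed it, with a negative value (-0.42, FDR = 0.053). Many of the H2-Q and H2-T genes are close copies. For H2-T22, 53.5% of the 50-base stretches in its transcripts also occurred in another gene, most often H2-T10. Of all 50-base stretches in the transcripts of H2-Q4, 36.4% also occurred in another gene, compared with 35.0% for H2-Q6, 9.63% for H2-K1, 12.8% for H2-D1, 3.17% for H2-T24, 0.576% for H2-M3 and 0 for B2m and Mr1, so the H2-Q4 count is less certain than that of H2-M3 or Mr1.

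The constitutive catalytic subunits, which the immunoproteasome subunits replace, had positive fold changes. Psmb5, replaced by Psmb8, was at 16.4, 18.1, 16.8 and 15.1 CPM in the aged sham group and at 25.1, 17.9, 21.7, 38.0 and 28.0 CPM in the aged bleo group (log2 fold change 0.65, SE 0.19, FDR = 0.0276). It was highest in aged bleo 4, without which the value was 0.47 and missed the limit on fold change. Of its 50-base stretches 54.1% also occurred in another gene, mainly the pseudogene Gm3375. Psmb7, replaced by Psmb10, had a log2 fold change of 0.43 (FDR = 0.0498) and Psmb6, replaced by Psmb9, one of 0.29 (FDR = 0.136). The 11 other core subunits ranged from 0.21 to 0.37 and the median was 0.30, yet 0 of 11 passed.

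The ratio of an inducible subunit to its constitutive counterpart within a library needs no scaling between libraries. Psmb10/Psmb7 in FPKM was 1.11, 0.899, 0.826 and 0.740 in the aged sham group and 0.610, 0.636, 0.809, 0.488 and 0.408 in the aged bleo group. All aged bleo libraries except aged bleo 3 lay below the lowest aged sham library. The mean log2 ratio was -0.178 ± 0.247 (SD, n = 4) against -0.801 ± 0.378 (n = 5), a difference of -0.62 (two-sided exact permutation test, p = 0.0317, or 0.0952 after Benjamini-Hochberg adjustment over the 3 ratios).

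Psmb8/Psmb5 was 0.824, 0.539, 0.537 and 0.600 in the aged sham group and 0.374, 0.448, 0.607, 0.355 and 0.364 in the aged bleo group, so aged bleo 3 again was the library that overlapped. The difference in the log2 ratio was -0.55 (exact permutation p = 0.0635, adjusted 0.0952). Psmb9/Psmb6 was 0.130 to 0.234 against 0.112 to 0.201 (difference -0.28, exact permutation p = 0.254, adjusted 0.254). None of the ratios passed an adjusted p of 0.05, and the smallest p this design allows is 0.0159. Without aged bleo 3, the library that overlapped, the groups were apart by construction, with differences of -0.75 for Psmb10/Psmb7 and -0.68 for Psmb8/Psmb5 (adjusted exact permutation p = 0.0429 for both). Without aged sham 4 and aged bleo 4 the differences were -0.65 and -0.50, with too few libraries left for any p under 0.05.

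**Figure D5:**
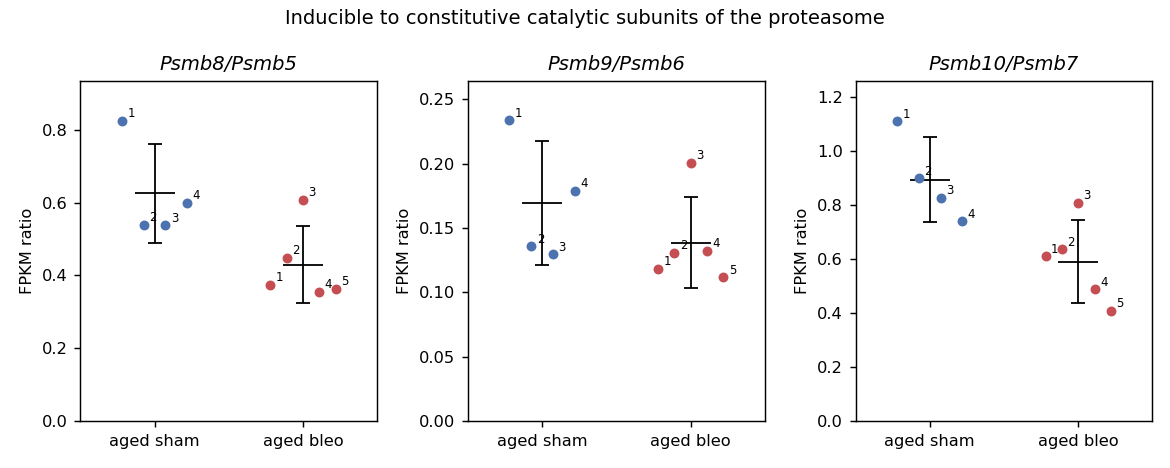
Ratio of FPKM of each inducible to its constitutive catalytic subunit (vertical axis from 0) per aged sham (blue, n = 4) and aged bleo (red, n = 5) library, with mean ± SD. Aged bleo 3 is the highest aged bleo library in all 3 panels, and in the outer panels the other 4 lie below every aged sham library.

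Genes for the rest of the presentation route did not pass in either direction. Of 11 genes for peptide trimming and glycoprotein folding, 0 passed and the median log2 fold change was 0.15, with Erap1, the aminopeptidase that trims peptides for class I molecules, at 0.06 and the tapasin-related Tapbpl at -0.34 (FDR = 0.119). Of 7 genes for the proteasome activator and assembly, 0 passed and the median was 0.24. The interferon-induced activator subunits Psme1 and Psme2 had values of -0.06 and 0.24. At the FDR limit alone, Psme3 (0.27, FDR = 0.021), Psme4 (0.40, FDR = 0.017), Uggt1 (0.20, FDR = 0.046), Tpp2 (0.25, FDR = 0.067), Ganab (0.15, FDR = 0.077) and Canx (0.23, FDR = 0.098) of these lists were higher, all short of 1.5-fold.

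Class II genes, which professional antigen-presenting cells express, were summed at 142 to 205 CPM in the aged sham group and 111 to 688 CPM in the aged bleo group, and were highest in aged bleo 4. Cd74, the class II invariant chain, was at 92.6, 98.2, 71.0 and 75.5 CPM in the aged sham group and at 48.9, 76.9, 173, 360.4 and 134 CPM in the aged bleo group, highest in aged bleo 4 and next in aged bleo 3, and did not pass (log2 fold change 0.91, FDR = 0.184). Of the 10 class II genes, H2-DMb1 rose (1.21, FDR = 0.0468) and H2-Ob, a B cell gene, fell (-1.18, FDR = 0.013), with 9 of 10 values positive and a median of 0.74. Beside these, 4 of 11 macrophage markers rose, 4 of 4 B cell markers fell, and 1 of 8 pan-leukocyte markers, Laptm5, rose, where 12.3% of all tested genes rose and 11.5% fell. The part of these cells in the class II values was not tested.

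Several members share sequence or position with a neighbour, and the strand setting of the counting is not given. Psmb9 and Tap1 overlap by 212 bases on opposite strands. Psmb8 and Psmb10 overlap the antisense genes Gm20496 and Gm16156, whose counts came to 43.9% and 46.0% of theirs, and Tap2 overlaps Gm15821 (27.8%) and Gm20496 (18.5%). Tapbp overlaps Zbtb22 (11.5%) and the antisense Gm19412 (9.21%). For these genes the counts may hold, or may have lost, reads of the partner.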

How the data were processed

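RNA-seq libraries of sorted lung fibroblasts were deposited as 1 table of raw gene counts and FPKM values for 4 aged sham and 5 aged bleo libraries. The authors aligned reads with STAR 2.5.2b and counted them with featureCounts of Subread, per the labels, on mm10/GRCm38. The annotation release and the strand setting are not given in the sources used here. Deposited counts were tested with edgeR 4.0.16 in R 4.3.3 (TMM, quasi-likelihood F test, no covariates) after the filter in the study's methods, an average count of at least 25. Genes passed at a Benjamini-Hochberg FDR under 0.10 over all 16877 tested genes and a fold change over 1.5. SE was the log2 fold change over the root of F. DESeq2 1.42.0 and limma 3.58.1 were alternatives. Deposited FPKM values, per the file headers, served for levels between genes and for ratios, using the deposited gene lengths as they stood. SciPy 1.17.1 ran the exact permutation tests. The fits were tested on simulated data. Promoter sequences are from RefSeq GRCm38.p6. Coordinates are those of the table, whose positions equalled GENCODE M21 (GRCm38) for 33460 of 42462 shared identifiers. No 2 libraries of a group agreed within sampling noise. The members, gene lists and motifs were chosen with earlier results of these data known. All members were named, as were other pathway genes that passed or paired with a member, and for 5 members the 3 genes with the highest within-group correlation. Other pathway genes named with values were chosen after their values were seen. Young libraries were not analysed here. Some results are not reported here.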

Additional observations from a re-analysis of the deposited data

Results flagged for a closer look

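Of 54 groups of libraries tested for a value far from the rest (Dixon's test at the 95% level), 7 had one, and chance gives about 1 in 20. Aged sham 1 stood above the other aged sham libraries for Tap1 (41.2 CPM, next 26.0), Psmb8 (42.5 CPM, next 30.7) and Jak2 (105 CPM, next 64.0). Aged bleo 3 stood above the other aged bleo libraries for H2-K1 (621 CPM, next 395) and for the Psmb9/Psmb6 FPKM ratio (0.201, next 0.132). Tapbp was lowest in aged sham 3 (215 CPM, next 228), a small gap beside 3 nearly equal values. Socs3 was lowest in aged sham 4 (881 CPM, next 1124).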

How the results depend on the processing

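The count of members passing was 0 under every alternative except leaving out aged sham 1, where it was 1 (Tap1), a range of 0 to 1 over the leave-one-out fits. Genes passing in all numbered 1785 on log2(FPKM + 1) (960 higher and 825 lower), 2158 at FDR under 0.05 and fold change over 2 (1224 and 934), and 7553 with no limit on fold change (3944 and 3609), and otherwise stayed within 1.5 times the count given. Psmb9 changed sign at values near 0, with 0.026 on log2(FPKM + 0.1), 0.018 on log2(FPKM + 1), 0.008 by library size only, 0.014 with no filter and 0.031 with the replicate block. Tapbp was 0.018 with the replicate block, and without aged sham 4 and aged bleo 4 together Tap2 was -0.014 and Psmb8 -0.098. Leaving out 1 library at a time gave log2 fold changes of -0.126 to 0.175 for Psmb9, -0.031 to 0.223 for Psmb8, -0.085 to 0.122 for Tap2, -0.067 to 0.335 for H2-K1, -0.093 to 0.024 for Tapbp, -0.266 to 0.0 for H2-D1 and 0.27 to 0.974 for Nlrc5. It gave differences in log2 ratio of -0.682 to -0.409 for Psmb8/Psmb5, -0.746 to -0.50 for Psmb10/Psmb7 and -0.423 to -0.113 for Psmb9/Psmb6. The cause was not tested. Irf1, H2-Q4 and H2-M3 passed under every alternative that kept the thresholds, and Mr1 under all of these except log2(FPKM + 1), where its 0.559 missed the limit on fold change.

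The replicate numbers of the 2 groups were treated as unpaired, since same-numbered libraries deviated from their group means with r of 0.092, 0.062, -0.13 and 0.326. With the replicate block, 3536 genes passed and 0 members. H2-T24 (-0.56), Socs1 (-0.51), Psmb5 (0.57) and H2-DMb1 (1.00) then missed a threshold. Close copies and the FVB haplotype limit the H2 counts to an extent not measured here, and Nlrc5, at 3.75 to 14.98 CPM, had the widest interval of the members.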
